A study of Mus musculus with 32 samples.

Results

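The 40 genes described here are interferon-stimulated genes, the transcripts that cells raise when they receive an interferon signal. They were chosen as a list of gene symbols covering transcription factors, sensors of foreign nucleic acid, antiviral enzymes and effectors, GTPases and antigen processing. The choice was made with earlier results of these data known. All 40 were found among the 54532 genes of a liver RNA-seq count table from 32 mice. The mice were C57BL/6, killed at 12 weeks of age, and either wild type (WT) or knockout (KO) for Cyp2c70, the liver enzyme that makes the hydrophilic muricholic acids of the mouse bile acid pool. The KO line descended from 1 founder in which CRISPR-Cas9 removed a stretch holding exon 2, so every cell of a KO mouse lacked it, and WT mice served as controls in both sexes. Mice of each sex and genotype ate chow, or chow with 0.006% SC-435 (about 11 mg/kg/day), an inhibitor of the ileal transporter that returns bile acids from the gut, which gave 8 groups of 4 mice. Livers were perfused with saline and lobes were frozen before RNA extraction, and each library came from the liver of 1 mouse. The comparisons asked how the 40 genes differed between KO and WT livers on chow, whether SC-435 moved them in either genotype, and whether females and males differed.

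Interferons are secreted proteins that warn neighbouring cells of infection. Type I and type III interferons act through receptors and the kinases JAK1 and TYK2 to assemble a complex holding STAT2 and IRF9 on a DNA element called ISRE, whereas the response to interferon gamma works through an element called GAS. In the liver, hepatocytes, Kupffer cells, infiltrating monocytes and endothelial cells can all respond.

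The promoters of the oligoadenylate synthetases Oas1a and Oas3, the effector Ifit1, the ubiquitin-like modifier Isg15 and the GTPase Gbp3 are shown. Oas1a and Oas3 were among the members with the largest differences between female KO and WT mice on chow, Ifit1 and Gbp3 were called in all 3 female groups against WT mice on chow, Isg15, called in 1 comparison, holds 3 overlapping matches, and Irf1 is shown as a member with GAS letters and no ISRE letters. Each stretch lies just upstream of an annotated start, comes from RefSeq on GRCm38.p6 and is printed 5′ to 3′ on the gene's strand, with letters of either motif in capitals.
Oas1a (chr5:120907526-120907655, minus strand): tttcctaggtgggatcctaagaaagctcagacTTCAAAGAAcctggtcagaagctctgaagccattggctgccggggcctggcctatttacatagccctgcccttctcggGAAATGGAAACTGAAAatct
Oas3 (chr5:120777662-120777789, minus strand): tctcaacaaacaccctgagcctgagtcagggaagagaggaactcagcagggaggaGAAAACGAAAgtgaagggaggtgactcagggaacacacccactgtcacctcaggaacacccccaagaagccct
Ifit1 (chr19:34640759-34640870, plus strand): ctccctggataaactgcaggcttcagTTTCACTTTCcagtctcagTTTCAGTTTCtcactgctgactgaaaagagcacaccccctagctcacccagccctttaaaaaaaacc
Isg15 (chr4:156200819-156200948, minus strand): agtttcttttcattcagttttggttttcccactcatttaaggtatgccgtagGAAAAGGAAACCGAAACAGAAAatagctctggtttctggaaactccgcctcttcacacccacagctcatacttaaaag
Gbp3 (chr3:142559914-142560025, plus strand): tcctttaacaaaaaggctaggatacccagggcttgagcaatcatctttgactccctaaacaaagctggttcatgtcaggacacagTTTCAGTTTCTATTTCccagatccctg
Irf1 (chr11:53769884-53770013, plus strand): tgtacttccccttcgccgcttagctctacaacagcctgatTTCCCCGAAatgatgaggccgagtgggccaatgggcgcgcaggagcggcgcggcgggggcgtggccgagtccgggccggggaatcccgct
The ISRE was searched as GAAA, any 2 bases and GAAA on both strands and the GAS as TTCNNNGAA, which reads the same on both, and overlapping ISRE matches run together in capitals in Oas1a, Isg15 and Gbp3. In Ifit1 and Gbp3 the matches lie on the opposite strand and so read as TTTC, any 2 bases and TTTC. Promoters of 29 of the 40 members were in the RefSeq table. Within 250 bases before the start, 14 of these 29 members (48.3%) held the ISRE letters, against 936 of all 27025 genes (3.46%). The GAS letters were found in 7 of the 29 members (24.1%), against 2197 of 27025 genes (8.13%). A match describes the letters and is neither a bound site nor a cause, and a promoter without a match says nothing about the factor. In the female KO livers on chow, 8 of the 14 members with ISRE letters and 8 of the 15 without them were called higher than in WT livers, as were 9.83% of all genes tested.

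Several members sit in clusters on the GRCm38 assembly. Oas2 (120730333 to 120749853), Oas3 (120753098 to 120777661) and Oas1a (120896256 to 120907521) lie together on chromosome 5, which also carries Oasl2 (114896936 to 114912234) and Oasl1 (114923240 to 114937915). On chromosome 19 lie Ifit2 (34550694 to 34576419), Ifit3 (34583531 to 34588731) and Ifit1 (34640871 to 34650009), and on chromosome 3 Gbp7 (142530342 to 142550149), Gbp3 (142560026 to 142573209) and Gbp2 (142620602 to 142638008). Psmb9 (34181988 to 34187764), Tap1 (34187553 to 34197225) and Psmb8 (34197721 to 34201454) are neighbours on chromosome 17, and Rsad2 (26442746 to 26456452) and Cmpk2 (26469204 to 26479837) on chromosome 12. Near-identical copies make 3 members uncertain as single genes. Words of 50 bases were shared with another gene over 70.7% of Gbp6 (Gm43302 and Gbp10), 57.6% of Oas1a (Oas1g) and 51.2% of Ifit3 (Ifit3b). Another 5 members (Gbp7, Igtp, Rtp4, Ifit1 and Trim30a) shared 5.98% to 12.7%. On the same strand, Irf9 overlaps Rnf31, Gbp6 Gm43302, Gbp7 Gm43802, Igtp Irgm2, Rtp4 Gm45338 and Parp14 AC129574.2. There strand does not separate the reads. Whether the counting used strand is not given in the sources used here. Irf1, Irf7, Dhx58, Oas2, Oasl1, Usp18, Gbp2, Psmb9, Tap1, Psmb8, Ifi35, Rtp4 and Trim30a are each overlapped by a gene on the other strand. Reads from the shared stretch cannot be told apart from those of that gene.

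Library totals ran from 36476021 to 44771350 counts. Levels are given in CPM, the counts divided by each library's TMM-scaled total over all 32 libraries. The 4 mice of a group follow in order of replicate. Cyp2c70 itself stood at 275 to 851 CPM in WT livers and 110 to 187 CPM in KO livers, counted over the whole gene, so exons outside the deletion are included. The 6 hepatocyte markers, among them Alb and Apoa1, summed to 48500 to 180000 CPM in every library. The library of male WT chow replicate 1 stood apart, with a TMM factor of 0.639 and a mean correlation of 0.917 with its group, where the other 3 reached at least 0.962. Genes longer than 5 kb were lower in it by a median of 0.51 on the log2 scale than in the rest of its group, whereas genes shorter than 2 kb differed by 0.02. In the other 31 libraries the same median for long genes lay between -0.12 and 0.20. Of the members, 9 of the 12 long ones lay below and 5 of the 6 short ones above the rest of the group. Male KO SC-435 replicate 3 had the same counts, so they do not set a library apart. The members' medians were -0.44 (long) and 0.86 (short) in male WT chow replicate 1. In male KO SC-435 replicate 3 they were -0.21 and 0.20. The counts and medians of the comparisons with male WT mice on chow are also given without this library, whereas the levels relative to that group include it in the group mean.

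The members differed widely in level. Per kb of gene length, averaged over the 32 mice, Bst2 (178 CPM per kb) and Iigp1 (97.7) were highest and Mx1 (0.617) and Oas3 (0.378) lowest. The highest group mean was 5.71 times the lowest for Oas3, 4.82 times for Ifi44, 4.52 times for Oas2 and 4.35 times for Mx1, but 1.17 times for Bst2. Female KO mice on chow had the highest mean for 23 of the 40 members, and male KO mice on SC-435 the lowest for 21. As one summary per mouse, the mean log2 level of the 40 members was taken relative to the mean of the same-sex WT chow group. It was 0.17, 0.01, -0.04 and -0.14 in female WT mice on chow, 0.23, 0.44, 0.29 and 0.21 in WT mice on SC-435, 0.38, 0.77, 0.75 and 0.47 in KO mice on chow and 0.12, 0.25, 0.20 and 0.49 in KO mice on SC-435. All 4 female KO mice on chow lay above all 4 WT mice on chow, while KO mice on SC-435 overlapped with the other 3 groups. In males it was -0.33, -0.02, -0.09 and 0.44, then 0.03, 0.13, 0.03 and 0.38, then 0.21, 0.16, 0.28 and 0.93, and -0.12, 0.01, -0.04 and 0.24 in the same order of groups. The male groups overlapped, and replicate 4 of the KO mice on chow was the highest male.

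**Figure D1:**
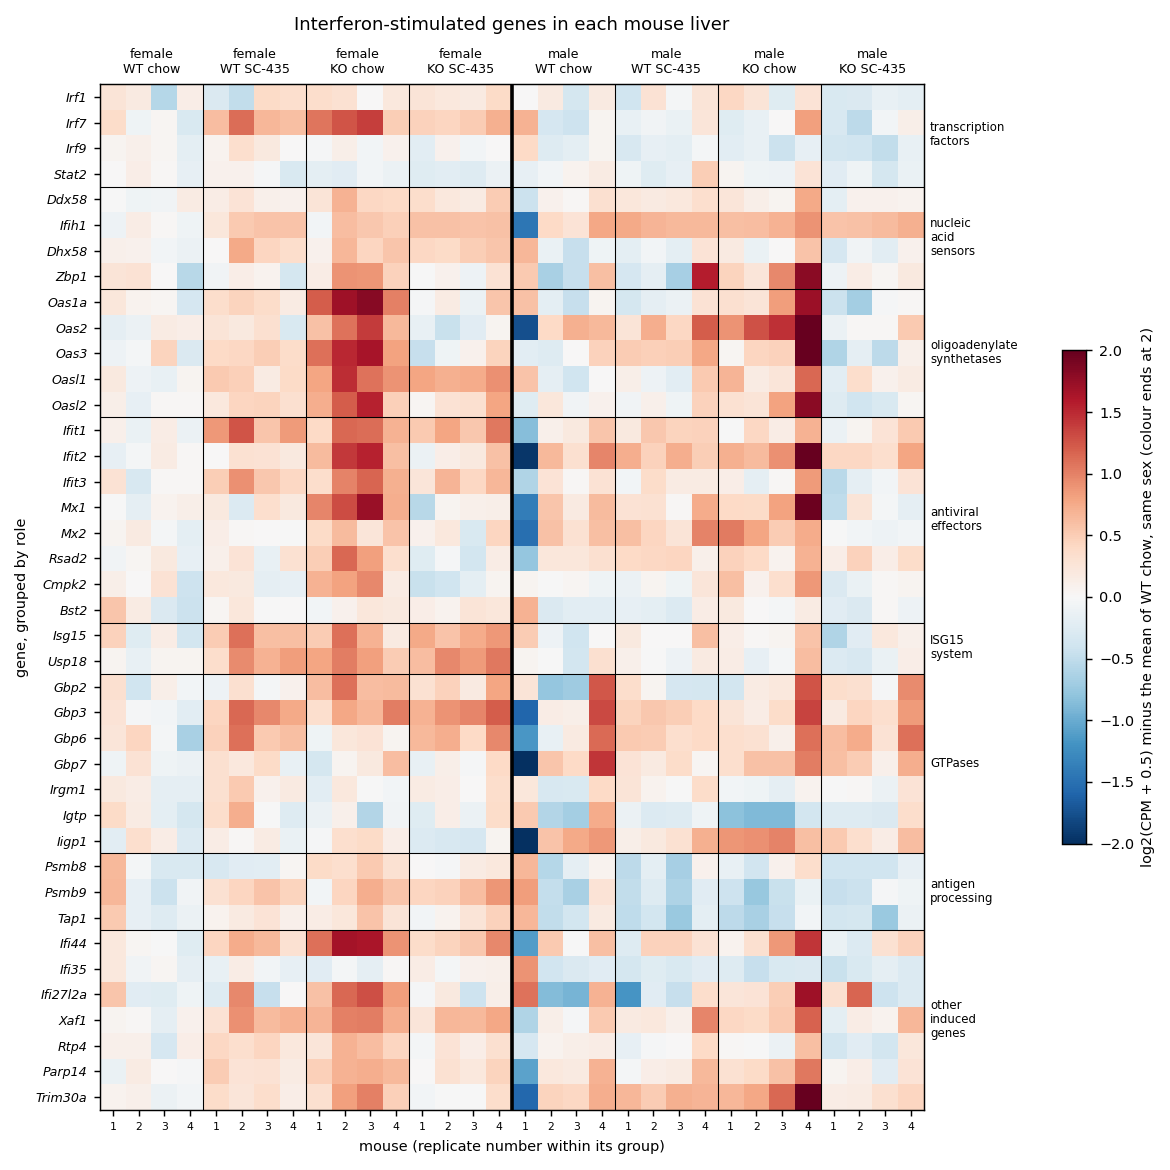
Levels of the 40 genes (rows, by role) in each of the 32 mice (columns, by group), as log2(CPM + 0.5) minus the mean of the same-sex WT chow group, with the colour scale ending at 2 in either direction. The female KO mice on chow form the block with the highest mean (0.59 over the 40 genes), and in males replicate 4 of the KO mice on chow (mean 0.93 over the 40 genes) stands out.

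In female mice on chow, the KO liver had higher levels of most of the 40 members. Since these were chosen with earlier results known, their share does not stand for all interferon-stimulated genes. Of the 40 members, 24 were higher in KO than in WT livers and none was lower, by edgeR's quasi-likelihood test with an adjusted p below 0.05 (Benjamini-Hochberg over all genes tested), which is the rule for every call below. Over all 16205 genes tested, 9.83% were higher and 5.05% lower. Fold changes are given on the log2 scale, with the standard error after ±. The median log2 fold change was 0.67 over the members and -0.02 over all genes tested, and 27 members passed at an unadjusted p below 0.05. Counts at an unadjusted p, here and below, have no share of all genes beside them. They are not calls and are not read as a result about the members. In whole liver RNA, fewer cells of a type and less RNA per cell cannot be told apart, in this and in every comparison. All 5 oligoadenylate synthetases were higher (median log2 fold change 1.14), as were 7 of 8 antiviral effectors (0.83) and 6 of 7 other induced genes (0.73). Of the others, 2 of 4 sensors, 1 of 2 ISG15 system genes (Usp18), 1 of 4 transcription factors and 2 of 7 GTPases were, and none of the 3 antigen processing genes (median 0.36). Of the 24 genes, 10 also passed a log2 fold change of 1, against 5.67% of all genes, namely Oas1a, Oas2, Oas3, Oasl1, Oasl2, Ifi44, Mx1, Ifit2, Irf7 and Ifi27l2a. Leaving out any 1 library gave 20 to 25 calls, and 19 genes were called each time. Scaling by library size alone moved the median of all genes to 0.17 and that of the members to 0.87.

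**Figure D2:**
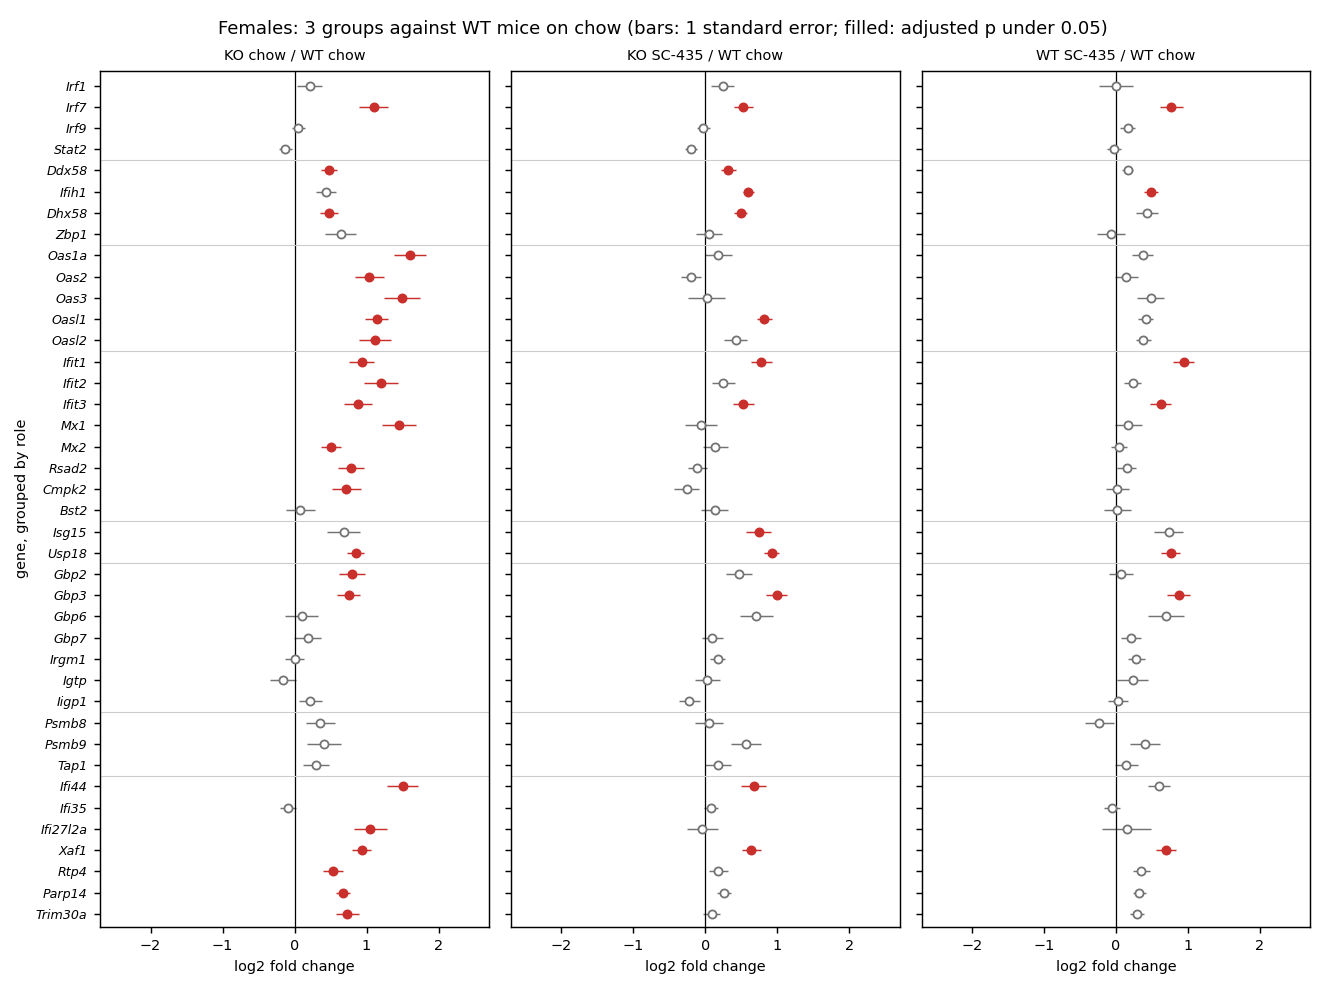
Log2 fold changes of the 40 genes in female livers against WT mice on chow, for KO mice on chow, KO mice on SC-435 and WT mice on SC-435, with bars of 1 standard error and filled points for an adjusted p below 0.05. The oligoadenylate synthetases reach 1.60 (Oas1a) in KO mice on chow and lie near 0 for Oas1a, Oas2 and Oas3 in KO mice on SC-435, while Usp18, Ifit1 and Gbp3 lie between 0.75 and 0.99 in all 3 comparisons.

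Markers of immune cells moved with this result. The 9 macrophage markers (Adgre1, Cd68, Clec4f, Vsig4, Timd4, Csf1r, Marco, Cd5l and C1qa) summed to 385 to 459 CPM in female WT mice on chow and 545 to 777 CPM in KO mice on chow, and 7 of them were higher. The 7 markers of monocytes and recruited macrophages (Ly6c2, Ccr2, Trem2, Gpnmb, Itgax, Cd9 and Lyz2) summed to 64.3 to 88.8 against 161 to 354 CPM, and all 7 were higher. The 5 plasmacytoid dendritic cell markers summed to 0.621 to 1.26 against 1.97 to 4.04 CPM, with all 3 that could be tested higher. The 6 neutrophil markers summed to 0.501 to 1.23 against 1.46 to 4.31 CPM, with both that could be tested higher. The T and NK list (13 genes, 4.30 to 7.38 against 5.91 to 12.3 CPM) had 2 higher of 12 tested. The B list (6 genes, 5.01 to 9.50 against 7.23 to 16.9 CPM) had none of 6. Of the cholangiocyte markers (8.45 to 15.5 against 15.9 to 38.4 CPM) 3 of 5 tested were higher. Of the endothelial markers (244 to 288 against 204 to 275 CPM) none of 5 was called. Of the 6 hepatocyte markers (90300 to 118000 against 53300 to 78800 CPM) 1 was higher and 4 were lower. No marker of these lists was at 0 in all mice of either group. Between female WT mice on SC-435 and on chow, where no KO mice entered, fewer markers of 4 of these lists passed the count filter. These were 6 monocyte and recruited macrophage, 10 T and NK, 2 plasmacytoid dendritic and 1 neutrophil markers. The rest of those tested here entered through the KO mice on chow, so their calls were partly set by the filter. The part of the marker lists in the members' result was not tested.

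**Figure D3:**
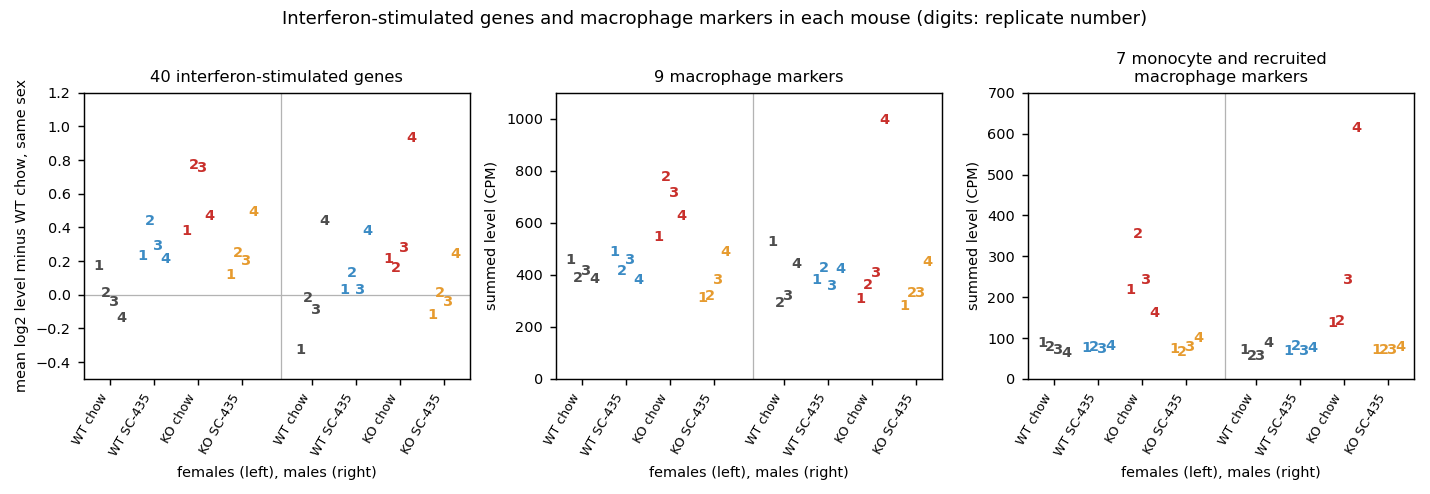
Mean log2 level of the 40 genes relative to the same-sex WT chow group, summed CPM of the 9 macrophage markers and summed CPM of the 7 monocyte and recruited macrophage markers, 1 point per mouse with its replicate number, by group. Female KO mice on chow are high in all 3 panels, female WT mice on SC-435 (0.21 to 0.44) are higher than WT mice on chow in the first panel while their macrophage sums (381 to 486 CPM) overlap with those of WT mice on chow, and male KO chow replicate 4 is highest in all 3 (0.93, 997 and 614).

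SC-435 lowered part of the program in female KO livers. Of the 40 members, 15 fell and 1, the GTPase Gbp6, rose between KO mice on chow and KO mice on SC-435, where 9.23% of the 16332 genes tested were lower and 8.56% higher. The median was -0.32 over the members and -0.02 over all genes, and 19 members were lower and 1 was higher at an unadjusted p below 0.05. The 15 were Oas1a, Oas2, Oas3, Mx1, Rsad2, Cmpk2, Ifit2, Irf7, Zbp1, Ifi27l2a, Ifi44, Parp14, Trim30a, Iigp1 and Psmb8. Beyond a log2 fold change of 1 lay 5 of them (3.70% of all genes were lower by that rule), namely Mx1, Oas3, Oas1a, Oas2 and Ifi27l2a. Neither member of the ISG15 system was called (Isg15 0.06 ± 0.18, Usp18 0.07 ± 0.13). The count fell to 7 or 8 without any 1 of 5 libraries (KO chow replicates 2 and 3 and KO SC-435 replicates 1, 2 and 3), to 9 with the replicate number as a block and to 5 with all 8 groups in 1 fit. Cmpk2, Mx1, Oas1a, Oas3 and Rsad2 were called in every alternative and without any 1 library. In the same comparison 8 of the 9 macrophage markers and all 7 monocyte and recruited macrophage markers were lower, as were 1 of 13 T and NK, 2 of 6 B, 3 of 3 plasmacytoid dendritic, 2 of 2 neutrophil and 1 of 5 cholangiocyte markers, and no endothelial or hepatocyte marker was called. Between KO mice on SC-435 and WT mice on chow, 6 monocyte, 10 T and NK, 2 plasmacytoid dendritic and 1 neutrophil markers passed the count filter. The rest entered here through the KO mice on chow, where they were high. The macrophage sum was 310 to 487 CPM and the monocyte sum 66.1 to 100 CPM in KO mice on SC-435, Ly6g was at 0 in that group, and the part of these markers in the result was not tested.

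Part of the members stood higher on SC-435 than in WT mice on chow, in KO and in WT females. Against WT mice on chow, KO mice on SC-435 had 12 members higher and none lower (8.73% of 15881 genes were higher and 7.30% lower, members' median 0.18, all genes -0.00, with 17 higher and 1 lower at an unadjusted p below 0.05). WT mice on SC-435 had 7 higher and none lower (2.40% of 15739 genes higher and 1.88% lower, members' median 0.26, all genes -0.00, with 19 higher and none lower at an unadjusted p below 0.05). Both comparisons use the same WT mice on chow, so their values are set side by side without a test of likeness. Called in KO mice on SC-435 were Ifih1, Ddx58, Dhx58, Irf7, Oasl1, Ifit1, Ifit3, Isg15, Usp18, Gbp3, Ifi44 and Xaf1, and in WT mice on SC-435 Ifih1, Irf7, Ifit1, Ifit3, Usp18, Gbp3 and Xaf1. For Usp18 the log2 fold change was 0.92 ± 0.11 in KO and 0.76 ± 0.13 in WT mice on SC-435, for Gbp3 0.99 ± 0.14 and 0.87 ± 0.16, and for Ifit1 0.78 ± 0.14 and 0.94 ± 0.15. None of the 9 macrophage markers was called in either comparison, 1 of the 6 monocyte and recruited macrophage markers tested was higher in KO mice on SC-435 and none was in WT mice. Outside these, 1 of 6 B and 2 of 5 cholangiocyte markers were higher and 2 of 6 hepatocyte markers higher and 2 lower in KO mice on SC-435, and 1 hepatocyte marker was higher in WT mice, with no part of theirs tested. The 7 calls in WT mice varied, with 1 to 12 when 1 library was left out (1 without WT SC-435 replicate 4, 2 without WT chow replicate 3 or WT SC-435 replicate 3, 3 without WT chow replicate 2 or WT SC-435 replicate 2, 4 without WT chow replicate 4, 12 without WT chow replicate 1), 12 with DESeq2 and 2 with all 8 groups in 1 fit. Of the 12 calls in KO mice, 8 held without any 1 library, and 3 (Ifit1, Oasl1 and Usp18) were left with all 8 groups in 1 fit.

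The difference between the SC-435 effects in KO and WT females was tested as an interaction. It was negative for 14 members and positive for none, against 1.78% and 0.859% of 16882 genes, with a median of -0.66 over the members and -0.01 over all genes. The 14 were Oas1a, Oas2, Oas3, Mx1, Rsad2, Ifit1, Ifit2, Ifit3, Irf7, Ifi44, Xaf1, Rtp4, Parp14 and Trim30a. For Oas3 the interaction was -1.96 ± 0.35 on the log2 scale (edgeR adjusted p = 0.0157), for Oas1a -1.80 ± 0.29 (edgeR adjusted p = 0.0141) and for Irf7 -1.35 ± 0.26 (edgeR adjusted p = 0.0176). The count ranged from 3 without KO SC-435 replicate 2 to 18 without KO chow replicate 4, and Oas1a, Oas3 and Parp14 were called without any 1 library. In the same test 5 of 9 macrophage and 5 of 7 monocyte and recruited macrophage markers were negative and 1 of 6 hepatocyte markers was positive, and their part was not tested. Between female WT mice on SC-435 and on chow, 6 monocyte and recruited macrophage markers passed the count filter. The rest of that list entered here through the KO mice, so its result was partly set by the filter.

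Among the transcription factors, Irf7 amplifies interferon production once induced, and Stat2 joins IRF9 in the complex that binds the ISRE. Irf7 stood at 38.9, 28.2, 30.7 and 24.1 CPM in the female WT mice on chow and 46.4, 65.8, 48.1 and 45.7 on SC-435. Irf7 read 63.5, 72.6, 78.8 and 42.5 CPM in female KO mice on chow and 41.7, 40.5, 42.9 and 49.3 on SC-435. Male livers held Irf7 at 63.1, 30.7, 29 and 40.4 CPM (WT, chow), 34.8, 36.9, 35.3 and 45.8 (WT, SC-435), 32.6, 35.1, 38.9 and 69.1 (KO, chow) and 31, 26.9, 37.3 and 42.2 (KO, SC-435). Every female group other than WT on chow lay above the WT mice on chow, and the male groups overlapped, with WT chow replicate 1 and KO chow replicate 4 highest. The log2 fold change of Irf7 in females was 1.10 ± 0.20 for KO against WT on chow (edgeR adjusted p = 0.00693), -0.58 ± 0.17 for SC-435 in KO mice, 0.77 ± 0.16 for SC-435 in WT mice and 0.53 ± 0.13 for KO mice on SC-435 against WT mice on chow. Stat2 stood at 93.2, 101, 93.8 and 82.9 CPM in the female WT mice on chow and 98.2, 97.8, 90.8 and 75 on SC-435. Stat2 read 80.5, 78.7, 88.9 and 85.4 CPM in female KO mice on chow and 78.4, 79.8, 77.2 and 84.9 on SC-435. Male livers held Stat2 at 69.2, 74.5, 81.3 and 86.7 CPM (WT, chow), 73.2, 65.5, 69.2 and 109 (WT, SC-435), 81, 72.9, 72.5 and 94.3 (KO, chow) and 66.3, 72.8, 60.6 and 70.5 (KO, SC-435). Stat2 overlapped between groups in every comparison and was not called in any. Irf9 was not called either (0.05 for female KO against WT on chow), and Irf1, a factor induced by interferon gamma, was called in 1 comparison, with a log2 fold change of -0.46 ± 0.13 for SC-435 in male KO mice.

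The sensors Ddx58 (RIG-I), Ifih1 (MDA5) and Dhx58 (LGP2) are helicases that recognise foreign RNA, and Zbp1 recognises nucleic acids in the Z form. Ifih1 stood at 34.9, 41.7, 38.2 and 35.2 CPM in the female WT mice on chow and 44, 54.2, 55.6 and 55.5 on SC-435. Ifih1 read 35.8, 57.6, 54.7 and 52.4 CPM in female KO mice on chow and 56.3, 56.7, 55.9 and 56.2 on SC-435. Male livers held Ifih1 at 9.52, 35.4, 32.3 and 46 CPM (WT, chow), 45.3, 42.9, 42.2 and 42.1 (WT, SC-435), 41, 41.2, 43.6 and 50.1 (KO, chow) and 39.7, 40.5, 41.7 and 44 (KO, SC-435). Ifih1 was highest and most even in female KO mice on SC-435, above every WT mouse on chow (0.60 ± 0.08, edgeR adjusted p = 0.000875), and was also higher in WT mice on SC-435 (0.49 ± 0.10). KO chow replicate 1 lay within the WT range, and the difference between KO and WT on chow was not called (0.44 ± 0.14, edgeR adjusted p = 0.0611). Ddx58 stood at 35.5, 33.8, 33.9 and 40.3 CPM in the female WT mice on chow and 39.8, 43.5, 38.6 and 38 on SC-435. Ddx58 read 42.7, 58.5, 48.1 and 47.3 CPM in female KO mice on chow and 45.8, 41.4, 40.1 and 50.9 on SC-435. Male livers held Ddx58 at 21.7, 31.1, 29.7 and 36.5 CPM (WT, chow), 34.5, 33.1, 34 and 37.1 (WT, SC-435), 34.7, 31.8, 30.3 and 49.7 (KO, chow) and 25.5, 31, 31.2 and 30.7 (KO, SC-435). All 4 female KO mice on chow exceeded the WT mice on chow for Ddx58 (0.48 ± 0.11). Dhx58 was higher in female KO mice on chow (0.48 ± 0.13) and on SC-435 (0.49 ± 0.09) against WT mice on chow, and Zbp1 fell with SC-435 in KO females (-0.60 ± 0.17).

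Active oligoadenylate synthetases make short oligoadenylates that activate RNase L, which degrades RNA, and Oasl1 and Oasl2 are related proteins of the same family. Oas1a stood at 4.41, 3.87, 3.78 and 2.82 CPM in the female WT mice on chow and 4.82, 5.22, 4.87 and 4.2 on SC-435. Oas1a read 9.2, 13.1, 14.2 and 7.9 CPM in female KO mice on chow and 3.61, 4.18, 3.35 and 5.63 on SC-435. Male livers held Oas1a at 5.35, 2.91, 2.33 and 3.56 CPM (WT, chow), 2.56, 2.92, 3.08 and 4.25 (WT, SC-435), 4.38, 4.16, 6.43 and 12.2 (KO, chow) and 2.38, 1.93, 3.31 and 3.46 (KO, SC-435). The female KO mice on chow did not overlap with any other female group, and all male KO mice on chow lay above the KO mice on SC-435. Oas1a had the largest rise of any member in female KO livers on chow, with a log2 fold change of 1.60 ± 0.22 (edgeR adjusted p = 0.00219), and fell with SC-435 in KO females (-1.42 ± 0.22, edgeR adjusted p = 0.00444) and KO males (-1.34 ± 0.37, edgeR adjusted p = 0.0376). Against WT mice on chow, female KO mice on SC-435 differed by 0.18 ± 0.19 (not called). Oas3 stood at 1.89, 2.01, 3.0 and 1.6 CPM in the female WT mice on chow and 2.91, 2.95, 3.11 and 2.83 on SC-435. Oas3 read 5.03, 6.81, 7.56 and 3.99 CPM in female KO mice on chow and 1.38, 1.94, 2.24 and 3.0 on SC-435. Male livers held Oas3 at 1.1, 1.04, 1.35 and 2.04 CPM (WT, chow), 2.12, 2.06, 2.1 and 2.64 (WT, SC-435), 1.39, 1.98, 2.03 and 9.31 (KO, chow) and 0.713, 1.12, 0.781 and 1.48 (KO, SC-435). Oas3 showed the same layout in females, where the difference was 1.49 ± 0.25 between KO and WT on chow and -1.47 ± 0.27 with SC-435 in KO mice, while in males KO chow replicate 4 lay far above the rest and the SC-435 difference in KO mice was not called (-1.89 ± 0.62, edgeR adjusted p = 0.063). Oas2 stood at 5.38, 5.67, 6.95 and 6.8 CPM in the female WT mice on chow and 7.49, 7.1, 7.79 and 4.88 on SC-435. Oas2 read 9.45, 13.7, 17 and 9.94 CPM in female KO mice on chow and 5.49, 4.38, 5.2 and 6.43 on SC-435. Male livers held Oas2 at 0.379, 3.43, 4.4 and 4.15 CPM (WT, chow), 3.08, 4.43, 3.46 and 6.4 (WT, SC-435), 5.03, 6.71, 7.69 and 19.8 (KO, chow) and 2.26, 2.54, 2.53 and 3.76 (KO, SC-435). KO mice on chow of either sex lay above the KO mice on SC-435 for Oas2, and the log2 fold change with SC-435 was -1.24 ± 0.20 in females and -1.86 ± 0.42 in males. Oasl1 stood at 13.1, 10.6, 10.2 and 11.8 CPM in the female WT mice on chow and 16.5, 16.1, 12.8 and 14.9 on SC-435. Oasl1 read 20.0, 32.7, 24.7 and 21.6 CPM in female KO mice on chow and 20.0, 18.9, 19.4 and 21.8 on SC-435. Male livers held Oasl1 at 21.1, 12.3, 10.5 and 14.1 CPM (WT, chow), 15.2, 13.1, 12 and 20.3 (WT, SC-435), 22.7, 15.8, 16.7 and 31.8 (KO, chow) and 12, 18, 14.9 and 15.7 (KO, SC-435). For Oasl1 all 4 female KO mice on SC-435 still exceeded the WT mice on chow (0.82 ± 0.10, edgeR adjusted p = 0.00063), with 1.14 ± 0.16 for KO mice on chow, and its change with SC-435 in KO females was not called (-0.32 ± 0.14). Oasl2 rose in female KO mice on chow (1.12 ± 0.22) and fell with SC-435 in KO males (-1.29 ± 0.35), and its difference with SC-435 in KO females was not called (-0.71 ± 0.25, edgeR adjusted p = 0.0732).

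**Figure D4:**
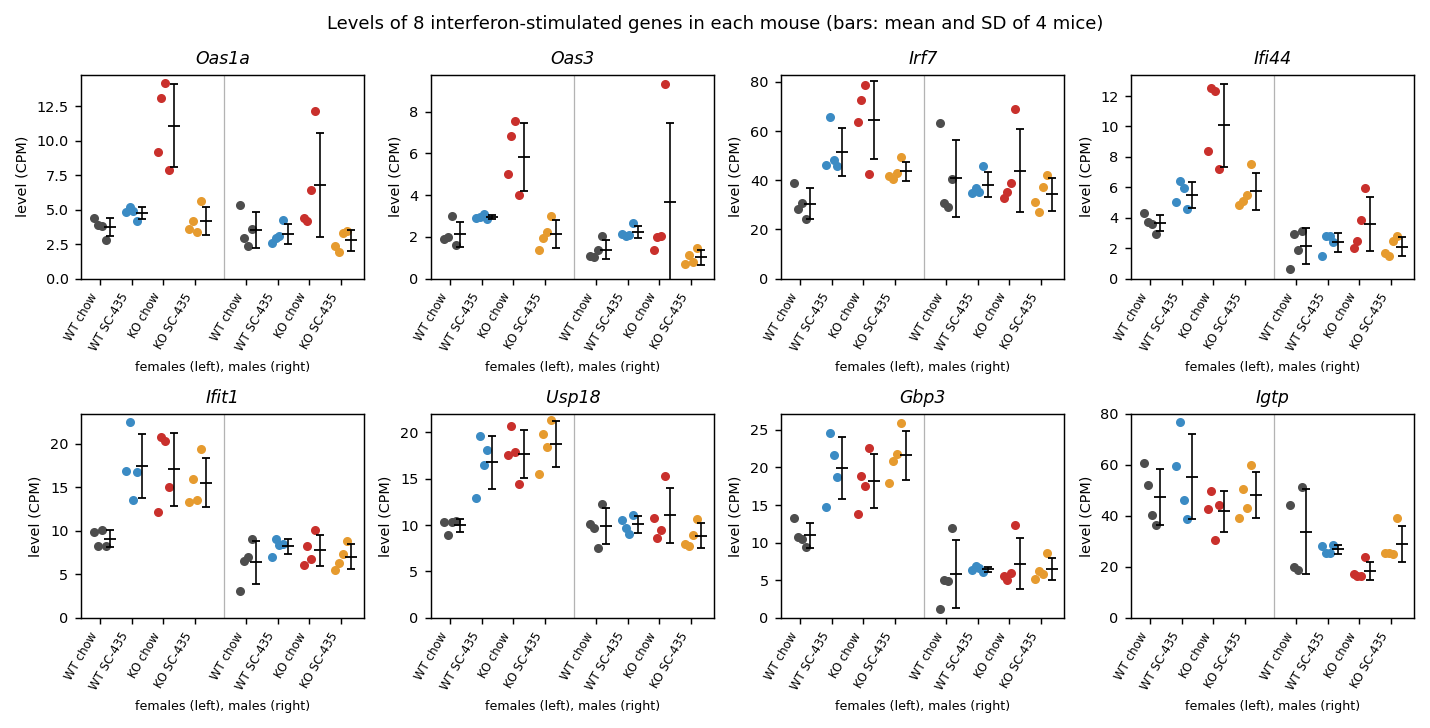
CPM of Oas1a, Oas3, Irf7, Ifi44, Ifit1, Usp18, Gbp3 and Igtp in each mouse by group, with the group mean and SD (n = 4). Oas1a, Oas3 and Ifi44 are highest in female KO mice on chow, Ifit1, Usp18 and Gbp3 are at like levels in 3 female groups above WT mice on chow, and Igtp is lowest in male KO mice on chow (16.3 to 23.7 CPM).

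Among the antiviral effectors, the Ifit proteins bind foreign RNA and hinder its translation, Mx1 and Mx2 are dynamin-like GTPases, Rsad2 (viperin) and its neighbour Cmpk2 act on nucleotides, and Bst2 (tetherin) holds budding virus at the cell surface. Bst2 stood at 218, 167, 121 and 110 CPM in the female WT mice on chow and 152, 173, 147 and 150 on SC-435. Bst2 read 143, 157, 174 and 170 CPM in female KO mice on chow and 162, 155, 178 and 174 on SC-435. Male livers held Bst2 at 268, 135, 143 and 143 CPM (WT, chow), 147, 144, 137 and 183 (WT, SC-435), 188, 165, 161 and 185 (KO, chow) and 141, 135, 168 and 153 (KO, SC-435). Bst2, the member with the highest level per length, overlapped between groups and was not called in any comparison by edgeR, and male WT chow replicate 1 was far above its group. Ifit1 stood at 9.82, 8.27, 10.1 and 8.31 CPM in the female WT mice on chow and 16.9, 22.5, 13.6 and 16.8 on SC-435. Ifit1 read 12.2, 20.8, 20.3 and 15 CPM in female KO mice on chow and 13.3, 16, 13.5 and 19.4 on SC-435. Male livers held Ifit1 at 3.11, 6.52, 6.96 and 9.09 CPM (WT, chow), 6.95, 9.03, 8.35 and 8.5 (WT, SC-435), 6.02, 8.21, 6.72 and 10.1 (KO, chow) and 5.53, 6.28, 7.4 and 8.87 (KO, SC-435). In females the 3 other groups all lay above the WT mice on chow for Ifit1 (0.93 ± 0.17 for KO mice on chow), and the difference with SC-435 in KO mice was not called (-0.15 ± 0.18). Ifit3 stood at 14.2, 9.1, 11.7 and 11.7 CPM in the female WT mice on chow and 16.5, 22.1, 17 and 15.6 on SC-435. Ifit3 read 14.9, 23.5, 26.6 and 19.3 CPM in female KO mice on chow and 13.8, 18.8, 15.6 and 18.5 on SC-435. Male livers held Ifit3 at 5.39, 10.3, 8.53 and 10.4 CPM (WT, chow), 8.09, 11, 9.44 and 9.49 (WT, SC-435), 9.25, 7.38, 8.59 and 15.5 (KO, chow) and 5.65, 7.36, 8.1 and 10.2 (KO, SC-435). Ifit3 followed with 0.88 ± 0.19 in KO mice on chow, 0.62 ± 0.15 in WT mice on SC-435 and 0.53 ± 0.14 in KO mice on SC-435, against WT mice on chow. In Mx1 the female KO mice on chow lay above all other female mice, as in Oas1a. In females its log2 fold change was 1.45 ± 0.24 for KO against WT on chow and -1.52 ± 0.27 for SC-435 in KO mice. Mx2 stood at 6.22, 6.85, 5.8 and 5.13 CPM in the female WT mice on chow and 6.56, 6.05, 6.01 and 5.96 on SC-435. Mx2 read 7.9, 9.57, 7.17 and 9.09 CPM in female KO mice on chow and 6.36, 6.99, 4.74 and 8.22 on SC-435. Male livers held Mx2 at 1.06, 6.17, 5.0 and 6.26 CPM (WT, chow), 6.22, 5.48, 4.79 and 8.36 (WT, SC-435), 8.62, 7.17, 5.78 and 6.95 (KO, chow) and 3.91, 3.76, 3.63 and 3.76 (KO, SC-435). Mx2, which the annotation lists as a polymorphic pseudogene, was lower in all 4 male KO mice on SC-435 than in any male KO mouse on chow (-0.95 ± 0.14, edgeR adjusted p = 0.00456), the one member called in males without any 1 library. Ifit2 rose in female KO mice on chow (1.2 ± 0.23) and fell with SC-435 (-0.95 ± 0.25), as did Rsad2 (0.78 ± 0.18 and -0.90 ± 0.19) and Cmpk2 (0.72 ± 0.20 and -0.98 ± 0.18).

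Isg15 is a ubiquitin-like protein joined to other proteins in interferon-treated cells, and Usp18 removes it and restrains the type I receptor. Usp18 stood at 10.3, 8.88, 10.3 and 10.4 CPM in the female WT mice on chow and 12.9, 19.6, 16.5 and 18.1 on SC-435. Usp18 read 17.6, 20.7, 17.9 and 14.4 CPM in female KO mice on chow and 15.5, 19.8, 18.4 and 21.3 on SC-435. Male livers held Usp18 at 10.1, 9.68, 7.48 and 12.3 CPM (WT, chow), 10.5, 9.72, 9.02 and 11.1 (WT, SC-435), 10.8, 8.6, 9.44 and 15.3 (KO, chow) and 7.99, 7.75, 8.89 and 10.7 (KO, SC-435). All 12 female mice that were KO, on SC-435 or both lay above the 4 WT mice on chow for Usp18, with 0.85 ± 0.12 for KO mice on chow (edgeR adjusted p = 0.00292), 0.76 ± 0.13 for WT mice on SC-435 (edgeR adjusted p = 0.0154) and 0.92 ± 0.11 for KO mice on SC-435 (edgeR adjusted p = 0.000612), whereas no male comparison was called. Isg15 stood at 12.8, 7.68, 10.2 and 7.02 CPM in the female WT mice on chow and 13.3, 20.3, 14.2 and 14.1 on SC-435. Isg15 read 13.2, 20.3, 15.2 and 10.4 CPM in female KO mice on chow and 15.8, 13.8, 15.7 and 17.1 on SC-435. Male livers held Isg15 at 10.7, 6.91, 5.48 and 7.42 CPM (WT, chow), 8.52, 7.42, 7.47 and 11.5 (WT, SC-435), 8.22, 7.56, 7.71 and 11.2 (KO, chow) and 4.74, 6.28, 8.62 and 7.99 (KO, SC-435). For Isg15 both female groups on SC-435 lay above WT mice on chow, called for KO mice (0.74 ± 0.17, edgeR adjusted p = 0.0147) and not for WT mice (0.73 ± 0.20, edgeR adjusted p = 0.0744), and KO mice on chow overlapped with WT mice (0.68 ± 0.23, edgeR adjusted p = 0.0784).

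The GTPases defend against microbes inside cells, with Gbp2, Gbp3, Gbp6 and Gbp7 as guanylate-binding proteins and Irgm1, Igtp and Iigp1 as immunity-related GTPases, and both families respond strongly to interferon gamma. Iigp1 stood at 297, 434, 383 and 285 CPM in the female WT mice on chow and 380, 349, 385 and 313 on SC-435. Iigp1 read 340, 436, 451 and 377 CPM in female KO mice on chow and 285, 277, 273 and 359 on SC-435. Male livers held Iigp1 at 39, 269, 304 and 329 CPM (WT, chow), 195, 207, 222 and 296 (WT, SC-435), 334, 340, 360 and 273 (KO, chow) and 260, 227, 200 and 278 (KO, SC-435). Iigp1 overlapped between groups, fell with SC-435 in KO mice of both sexes (-0.44 ± 0.12 in females and -0.47 ± 0.13 in males) and read 39.0 CPM in male WT chow replicate 1. Igtp stood at 60.6, 52.2, 40.3 and 36.4 CPM in the female WT mice on chow and 59.6, 76.9, 46.1 and 38.8 on SC-435. Igtp read 42.7, 49.6, 30.6 and 44.3 CPM in female KO mice on chow and 39.2, 50.7, 42.9 and 59.9 on SC-435. Male livers held Igtp at 44.3, 20.1, 18.9 and 51.5 CPM (WT, chow), 28.1, 25.3, 25.5 and 28.7 (WT, SC-435), 17, 16.4, 16.3 and 23.7 (KO, chow) and 25.6, 25.5, 25 and 39.3 (KO, SC-435). Male KO mice on chow had the lowest mean Igtp level of any group and did not overlap with the KO mice on SC-435, the one member higher with SC-435 in male KO mice (0.62 ± 0.18, edgeR adjusted p = 0.0472), a call held in 1 of 8 fits without 1 library. Gbp3 stood at 13.3, 10.7, 10.5 and 9.36 CPM in the female WT mice on chow and 14.8, 24.6, 21.6 and 18.7 on SC-435. Gbp3 read 13.8, 18.9, 17.6 and 22.6 CPM in female KO mice on chow and 18, 20.8, 21.8 and 25.9 on SC-435. Male livers held Gbp3 at 1.18, 5.07, 4.93 and 12 CPM (WT, chow), 6.34, 6.83, 6.57 and 6.11 (WT, SC-435), 5.52, 5.06, 5.97 and 12.3 (KO, chow) and 5.19, 6.26, 5.84 and 8.59 (KO, SC-435). For Gbp3 all 3 other female groups lay above WT mice on chow, with 0.75 ± 0.16 for KO mice on chow (edgeR adjusted p = 0.0122). Gbp6 stood at 5.56, 6.4, 4.45 and 2.77 CPM in the female WT mice on chow and 6.51, 10.4, 6.85 and 7.24 on SC-435. Gbp6 read 4.32, 5.45, 5.66 and 4.81 CPM in female KO mice on chow and 7.51, 7.98, 6.23 and 9.47 on SC-435. Male livers held Gbp6 at 0.721, 1.97, 2.6 and 5.54 CPM (WT, chow), 3.46, 3.4, 2.95 and 3.12 (WT, SC-435), 2.96, 2.87, 2.44 and 5.4 (KO, chow) and 3.71, 4.11, 2.85 and 5.39 (KO, SC-435). Both female groups on SC-435 lay above their counterparts on chow for Gbp6, called in KO mice (0.61 ± 0.15, edgeR adjusted p = 0.0216) and not in WT mice (0.70 ± 0.25). Gbp2 rose in female KO mice on chow (0.80 ± 0.18), and Gbp7 and Irgm1 were not called in any comparison.

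The antigen processing members, Psmb8 and Psmb9 of the immunoproteasome and the peptide transporter Tap1, gave 1 call within females and none within males. Psmb8 stood at 33.2, 20.6, 17 and 16.9 CPM in the female WT mice on chow and 16.7, 18, 18.1 and 21.6 on SC-435. Psmb8 read 27.7, 26.6, 30.5 and 26.1 CPM in female KO mice on chow and 21.2, 20.8, 23.7 and 24.4 on SC-435. Male livers held Psmb8 at 34.7, 14.5, 19.1 and 22.9 CPM (WT, chow), 15, 18.8, 13.5 and 23.1 (WT, SC-435), 19.6, 16.5, 23 and 27.9 (KO, chow) and 16.4, 16.3, 16.3 and 19.2 (KO, SC-435). In females all KO mice on chow lay above the KO mice on SC-435 for Psmb8 (-0.32 ± 0.09), and WT chow replicate 1 lay above both. Tap1 stood at 42.6, 26.3, 24.5 and 27.1 CPM in the female WT mice on chow and 31, 33.2, 35.8 and 31.6 on SC-435. Tap1 read 32.7, 34.5, 43.7 and 35.4 CPM in female KO mice on chow and 28.3, 30.8, 35.3 and 40.7 on SC-435. Male livers held Tap1 at 61, 27.1, 29.5 and 43.3 CPM (WT, chow), 26.7, 29.3, 22.6 and 33.2 (WT, SC-435), 26.4, 24.1, 27.7 and 36.6 (KO, chow) and 29.4, 29.8, 22.6 and 35.3 (KO, SC-435). Tap1 and Psmb9 overlapped between the groups of every comparison and were not called.

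The other induced genes include Ifi44, a cytoplasmic protein of the antiviral state, Ifi27l2a, a small membrane protein, Xaf1, which promotes cell death, Rtp4, Parp14 and Trim30a. Ifi44 stood at 4.28, 3.73, 3.59 and 2.96 CPM in the female WT mice on chow and 5.01, 6.39, 5.96 and 4.56 on SC-435. Ifi44 read 8.36, 12.5, 12.3 and 7.17 CPM in female KO mice on chow and 4.83, 5.08, 5.48 and 7.54 on SC-435. Male livers held Ifi44 at 0.607, 2.93, 1.88 and 3.12 CPM (WT, chow), 1.51, 2.78, 2.79 and 2.42 (WT, SC-435), 2.0, 2.48, 3.88 and 5.94 (KO, chow) and 1.67, 1.47, 2.45 and 2.78 (KO, SC-435). The female KO mice on chow lay above the WT mice of either diet and overlapped with KO mice on SC-435 by 1 mouse, replicate 4 of the latter group. Ifi44 had log2 fold changes of 1.5 ± 0.21 for KO against WT on chow (edgeR adjusted p = 0.00233), -0.83 ± 0.21 for SC-435 in KO mice and 0.67 ± 0.17 for KO mice on SC-435 against WT mice on chow. Ifi27l2a stood at 6.69, 3.69, 3.64 and 4.11 CPM in the female WT mice on chow and 3.58, 9.0, 3.06 and 4.4 on SC-435. Ifi27l2a read 6.89, 10.3, 11.5 and 8.27 CPM in female KO mice on chow and 4.34, 5.12, 3.17 and 4.79 on SC-435. Male livers held Ifi27l2a at 9.75, 2.14, 2.03 and 7.29 CPM (WT, chow), 1.63, 3.62, 3.01 and 5.65 (WT, SC-435), 5.16, 5.29, 6.29 and 15 (KO, chow) and 5.53, 10.3, 3.12 and 3.48 (KO, SC-435). Ifi27l2a fell from 9.24 ± 2.06 to 4.36 ± 0.855 CPM (SD, n = 4) with SC-435 in female KO mice (-1.10 ± 0.19, edgeR adjusted p = 0.00653), a level that overlapped with WT mice. Xaf1 stood at 6.93, 6.76, 5.82 and 7.04 CPM in the female WT mice on chow and 8.18, 12.9, 10.5 and 11 on SC-435. Xaf1 read 10.9, 13.8, 13.9 and 11.3 CPM in female KO mice on chow and 7.91, 10.8, 10.7 and 11.7 on SC-435. Male livers held Xaf1 at 2.77, 4.91, 4.38 and 6.65 CPM (WT, chow), 5.12, 5.24, 4.84 and 9.33 (WT, SC-435), 6.13, 6.02, 6.66 and 10.8 (KO, chow) and 3.83, 5.04, 4.71 and 7.42 (KO, SC-435). Xaf1 was higher than in WT mice on chow in all 3 other female groups (0.93 ± 0.13, 0.69 ± 0.14 and 0.64 ± 0.13 for KO on chow, WT on SC-435 and KO on SC-435). Ifi35 stood at 21.3, 17.4, 18.9 and 16.2 CPM in the female WT mice on chow and 16.6, 20.4, 17.6 and 16.3 on SC-435. Ifi35 read 15.6, 17.8, 16.2 and 18.6 CPM in female KO mice on chow and 20.5, 17.9, 19.5 and 19.7 on SC-435. Male livers held Ifi35 at 42.5, 17.1, 18.3 and 19.2 CPM (WT, chow), 17.5, 18.9, 18.2 and 19.1 (WT, SC-435), 18.7, 16.2, 18.2 and 18.3 (KO, chow) and 16.4, 18.1, 19.8 and 18.5 (KO, SC-435). Ifi35 overlapped in every comparison and was not called, and male WT chow replicate 1 stood alone above its group. Parp14 rose by 0.67 ± 0.10 in female KO mice on chow and changed by -0.41 ± 0.10 with SC-435, Trim30a changed by 0.73 ± 0.16 and -0.64 ± 0.17, and Rtp4 rose by 0.53 ± 0.14 and was not called with SC-435.

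In males no member was called between KO and WT livers on chow by edgeR, where 0.933% of 15862 genes were higher and 0.151% lower. The members' median was 0.35 against 0.04 for all genes, 5 members were higher and 1 was lower at an unadjusted p below 0.05, DESeq2 called none, voom with quality weights called 3 (Bst2, Oas1a and Oasl1) and a fit of all 8 groups called 9. The largest differences were 1.72 ± 0.68 for Oas2 (edgeR adjusted p = 0.269), 1.47 ± 0.63 for Oas3, 1.16 ± 0.54 for Trim30a and 1.10 ± 0.68 for Mx1, none called, and Igtp stood at -0.83 ± 0.36. Without WT chow replicate 1 these were 1.34 for Oas2, 1.37 for Oas3, 0.83 for Trim30a, 0.73 for Mx1 and -0.68 for Igtp. Without KO chow replicate 4 they were 1.09, 0.40, 0.72, 0.47 and -1.01 in the same order. The standard errors were wide, and beside WT chow replicate 1, KO chow replicate 4 also stood apart, with 9.31 CPM of Oas3 against 1.39, 1.98 and 2.03 in its group. That KO mouse also had the highest macrophage sum (997 CPM, the other 3 at 307 to 407) and monocyte sum (614 CPM, the other 3 at 136 to 241). No member was called with either of these libraries left out, and the median was 0.25 without the WT library and 0.11 without the KO library. Leaving out WT chow replicate 4 raised it to 0.58, and no member was called in any of the 8 fits without 1 library. Of the markers, none of 9 for macrophages, 2 of 7 for monocytes and recruited macrophages and 2 of 5 for cholangiocytes were higher, and their part was not tested. Between male WT mice on SC-435 and on chow, 6 monocyte and recruited macrophage markers passed the count filter. The rest of that list entered here through the KO mice on chow, so its result was partly set by the filter.

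SC-435 lowered 8 members and raised 1 in male KO mice, where 8.36% of 15984 genes were lower and 8.80% higher. The median was -0.37 over the members and -0.03 over all genes, with 17 lower and 1 higher at an unadjusted p below 0.05. The 8 were Oas1a, Oas2, Oasl2, Mx2, Cmpk2, Trim30a, Irf1 and Iigp1, of which Oas1a, Oas2, Oasl2 and Trim30a lay beyond a log2 fold change of 1 (4.57% of all genes were lower by that rule). Mx1 was not called (-1.48 ± 0.45, edgeR adjusted p = 0.0503), nor was Parp14 (-0.59 ± 0.18, edgeR adjusted p = 0.0515). Without KO chow replicate 4 the count was 7 and the median -0.19, and the count was 3 without KO chow replicate 3, 1 without KO SC-435 replicate 1, 2 or 3 and 2 without KO SC-435 replicate 4. In this comparison 1 of 9 macrophage markers, all 7 monocyte and recruited macrophage markers, both neutrophil markers tested and 4 of 5 cholangiocyte markers were lower, 2 of 5 endothelial markers and 1 of 6 B markers were higher, and their part was not tested. Between male KO mice on SC-435 and WT mice on chow, 6 monocyte and recruited macrophage markers and 0 neutrophil markers passed the count filter. The rest of these 2 lists entered here through the KO mice on chow.

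**Figure D5:**
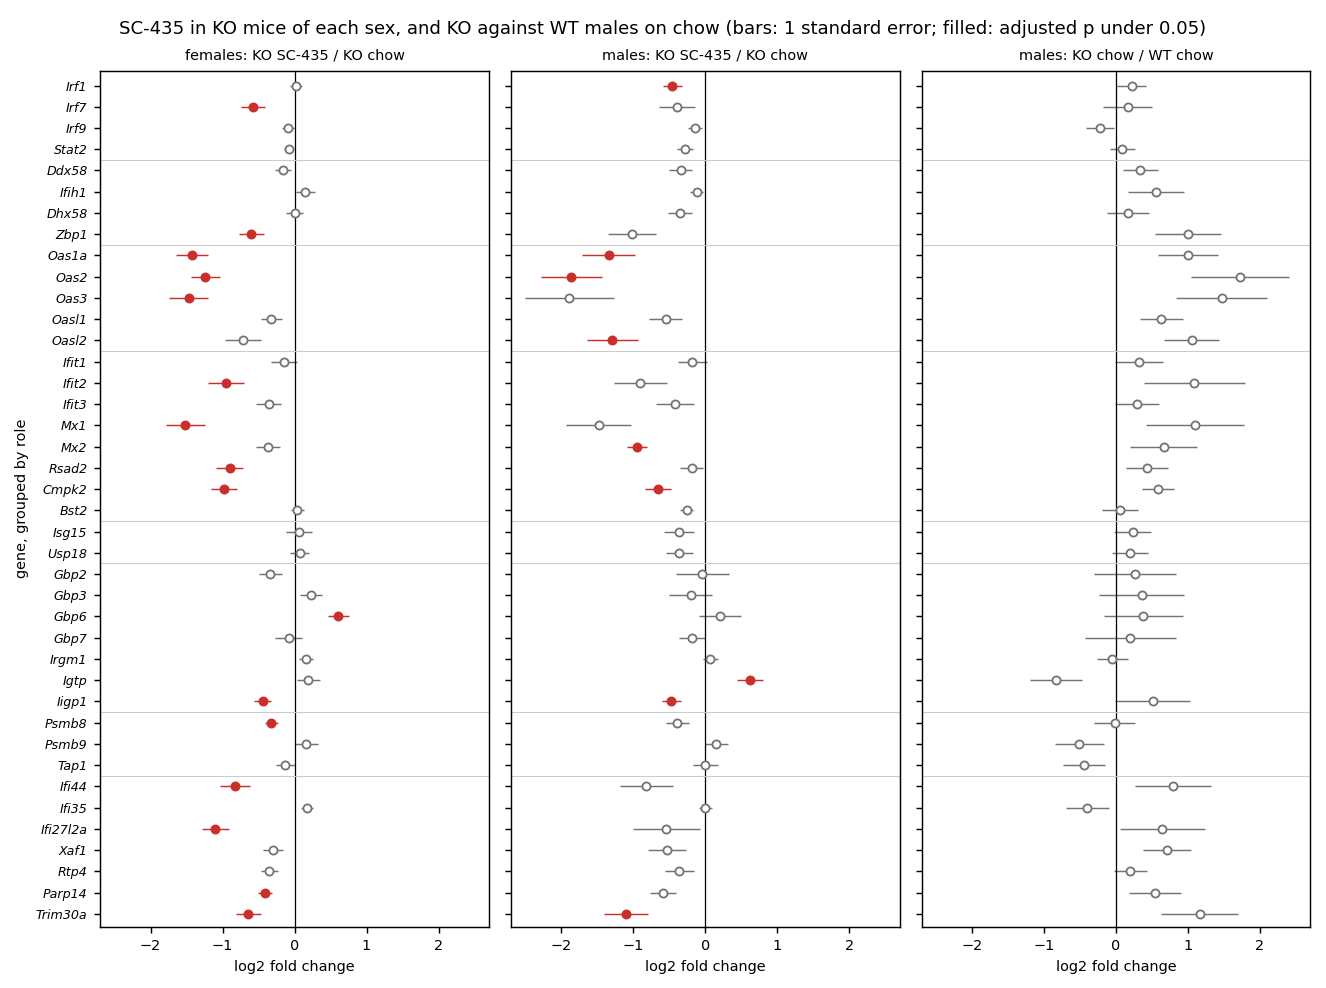
Log2 fold changes of the 40 genes with SC-435 in KO females, with SC-435 in KO males, and between KO and WT males on chow, with bars of 1 standard error and filled points for an adjusted p below 0.05. Oas2 lies at -1.24 in KO females and -1.86 in KO males, and the third comparison has wide bars and no filled point.

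In male WT mice no member was called for SC-435 by edgeR (0.0131% of 15211 genes were higher and 0.0263% lower, members' median 0.07, all genes -0.03, 1 higher at an unadjusted p below 0.05, and 3 without WT chow replicate 1), with none by DESeq2 and 1, Iigp1, by voom with quality weights. The median was 0.03 without WT chow replicate 1 and ran from -0.05 (without WT SC-435 replicate 4) to 0.21 (without WT chow replicate 4). Between male KO mice on SC-435 and WT mice on chow no member was called (0.169% of 15395 genes higher and 0.0390% lower, members' median -0.16, all genes -0.03, none at an unadjusted p below 0.05), with none by DESeq2, 3 by voom with quality weights (Mx1, Mx2 and Stat2) and 1, Mx2, lower without male WT chow replicate 1. The median was -0.15 without that library and ran from -0.23 (without KO SC-435 replicate 4) to -0.03 (without WT chow replicate 4). The interaction of genotype and diet in males was called for no member by edgeR (0.0121% of 16555 genes higher and 0.0785% lower, members' median -0.49, all genes -0.04, 1 positive and 10 negative at an unadjusted p below 0.05, and 14 in all without WT chow replicate 1), for 1, Oas3, by DESeq2 and for 2, Mx2 and Oas3, by voom with quality weights. Its median was -0.42 without WT chow replicate 1 and ran from -0.62 to -0.38 without 1 library. The male counts at an unadjusted p have no share of all genes to be set against.

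The sexes were compared directly in 3 ways, and none gave a called member by edgeR. Between female and male WT mice on chow no member was called (0.747% of 15525 genes in each direction, members' median 0.27, all genes -0.01, with Zbp1 and Cmpk2 higher in females at an unadjusted p below 0.05), with none by DESeq2 and 6 by voom with quality weights. Without male WT chow replicate 1 Oas2 and Trim30a were called higher in females and the median was 0.23, and without male WT chow replicate 4 it was 0.44. A difference of the KO effect on chow between sexes was called for no member (0.0117% of 17026 genes in each direction, members' median 0.34 toward a larger effect in females, all genes 0.00), with Irf7, Usp18, Psmb9 and Tap1 at an unadjusted p below 0.05, none by DESeq2, none without male WT chow replicate 1 (median 0.28) and 6 by voom with quality weights. The median ran from 0.15 without male WT chow replicate 4 to 0.55 without male KO chow replicate 4. For Irf7 the difference of the effects was 1.0 ± 0.42 on the log2 scale. Nor was a difference of the SC-435 effect in KO mice (0.0996% of 17069 genes positive and 0.111% negative, members' median 0.12, all genes -0.00), with Irf1, Mx2, Bst2 and Rsad2 at an unadjusted p below 0.05 and none by DESeq2 or voom with quality weights. That median changed sign with 1 library, from -0.02 without male KO chow replicate 4 to 0.18 without male KO chow replicate 2 or KO SC-435 replicate 4. The KO and SC-435 effects are therefore not shown to differ between the sexes, and the sex difference of the SC-435 effect in WT mice was not tested.

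Genes of the interferon pathway outside the 40 were read from a list of 99, of which 97 were in the table. The 12 interferon genes on it were near the limit of detection and none could be tested. Ifna1, Ifna2, Ifna4, Ifna5, Ifna11, Ifne, Ifnl2 and Ifnl3 had 0 counts in all 32 mice, Ifnb1 1 count in 1 mouse, Ifnz 3 counts in 3 mice, Ifng 26 counts over 13 mice (at most 4 in a mouse) and Ifnk 79 counts over 24 mice. The receptor chains of type I interferon were not called in female KO mice on chow (Ifnar1 -0.02 ± 0.08 and Ifnar2 0.10 ± 0.09). The gamma receptor chain Ifngr1 rose (0.55 ± 0.11) and Ifngr2 was not called (0.34 ± 0.11). The lambda receptor chains Il10rb (1.05 ± 0.13) and Ifnlr1 (3.23 ± 0.64) rose. In WT mice of either sex on SC-435 against chow, 5 of the 6 receptor chains, all but Ifnlr1, passed the count filter. The calls of Ifnlr1, here and with SC-435, therefore rest on the KO mice where it was high. With SC-435 in KO mice Ifngr1 (-0.61 ± 0.12) and Il10rb (-0.45 ± 0.12) fell in females and Ifnlr1 (-3.51 ± 0.83) in males. Of the 84 genes tested on this list, 36 were higher and none lower in female KO mice on chow (median 0.36), where 9.83% of all genes were higher and 5.05% lower (median -0.02), the smallest p-values belonging to Mlkl, which executes necroptosis (1.54 ± 0.15), Slfn8 (1.61 ± 0.19), Il10rb, Tlr7, an endosomal RNA receptor (1.37 ± 0.19), and Ciita, which directs MHC class II expression (1.86 ± 0.26). In female KO mice SC-435 lowered 26 of 84 (9.23% of all genes were lower) and raised 5 of 84, a smaller share than the 8.56% of all genes that were higher, namely Gbp10, Apol9a, Apol9b, Ube2l6 and Psme1, and among those lowered the smallest p-values belonged to Socs3, a brake on cytokine signalling (-1.41 ± 0.22), Irf8 (-0.85 ± 0.15) and Slfn2 (-1.27 ± 0.24). Of 84 genes, 14 were higher, led by Parp12 (0.67 ± 0.07), Mlkl, Ube2l6 and Il10rb, and 1, Socs3 (-0.76 ± 0.12), was lower in female KO mice on SC-435 than in WT mice on chow (8.73% and 7.30% of all genes). Of 83 genes 3 (Parp12, Herc6 and Gbp10) were higher in female WT mice on SC-435 (2.40% of all genes). The interaction in females was negative for 9 of 84 (1.78% of all genes), led by Slfn8 (-1.70 ± 0.31), Tlr7 (-1.77 ± 0.36), Sp100, Adar and Lgals3bp. In males Mlkl was the 1 gene of 84 higher in KO mice on chow (0.933% of all genes), and the interaction was called for Mlkl (-1.70 ± 0.28, with 0.0785% of all genes negative). With SC-435 in male KO mice 8 of 84 were lower, led by Ifitm3, Mlkl, Ly6e, Tmem173 and Irf5, a share near the 8.36% of all genes that were lower, and 3 (Psme1, Ube2l6 and Apol9b) were higher, a smaller share than the 8.80% of all genes. No gene of the list was called for SC-435 in male WT mice (81 tested) or for male KO mice on SC-435 against WT mice on chow (83 tested), 1, Socs3 (-1.14 ± 0.20), was lower in female than in male WT mice on chow, and none was called in either test of a sex difference.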

How the data were processed

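Liver RNA from 32 mice was sequenced and the authors deposited read counts per gene. The submitters' processing notes name HISAT2 2.0.5, an aligner, featureCounts 1.5.0-p3, a read counter, DESeq2 1.20.0, GATK 4.1.1.0 and the mm10 build, without the role or order of each. The authors' FPKM values, also deposited, were not used, nor were their columns of group means, log2 fold changes and p-values for pairs of groups. Groups came from the sample labels. Genes passing filterByExpr were tested with edgeR 4.0.16 (quasi-likelihood, TMM, Benjamini-Hochberg over all genes tested) in R 4.3.3, with only the 2 groups compared, or 4 for an interaction. Calls needed an adjusted p below 0.05. Other settings tried were DESeq2 1.42.0, voom with quality weights (limma 3.58.1), scaling by median-of-ratios factors or by library size alone, no filter, a replicate block, all 8 groups in 1 fit and leaving out each library. The 48 within-group pairs of libraries all differed beyond sampling noise (lowest chi-square per gene 18.5). P-values set the difference between groups against the spread between mice. The per-mouse summary used a pseudocount of 0.5 CPM.

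The members and the lists of markers and pathway genes were chosen with earlier results of these data known. Values of every mouse are given for the 2 members of each role with the highest level per length and, in each comparison, the 3 members with the smallest p in each direction among those called. Pathway genes are named if they are interferons or receptors, among the 5 smallest p-values of a comparison, or in a count of 5 or fewer. The fits were tested on simulated counts. Depth limits genes near 0 counts, such as the interferons.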

Additional observations from a re-analysis of the deposited data

Results flagged for a closer look

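In 200 sets of 4 mice the gap between the highest or lowest mouse and its nearest neighbour was set against the whole range, and 21 passed Dixon's critical value. Chance passes about 1 in 20 such sets.

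Male KO chow replicate 4 stood above its group in the mean log2 level of the 40 members (0.93) and in the CPM of Gbp3 (12.3), Ifi27l2a (15.0), Igtp (23.7), Oas3 (9.31) and Xaf1 (10.8). Male WT chow replicate 1 stood above its group in Bst2 (268 CPM) and Ifi35 (42.5 CPM). In the males on SC-435, the mice apart from their groups were KO replicate 1 for Ddx58 (25.5 CPM), KO replicate 4 for Igtp (39.3 CPM) and Psmb8 (19.2 CPM), and WT replicate 4 for Oas3 (2.64 CPM) and Xaf1 (9.33 CPM). In the females, WT chow replicate 1 was apart for Ifi27l2a (6.69 CPM) and Tap1 (42.6 CPM), WT chow replicate 2 for Usp18 (8.88 CPM), WT SC-435 replicate 1 for Ifih1 (44.0 CPM) and Mx2 (6.56 CPM), WT SC-435 replicate 2 for Irf7 (65.8 CPM) and Isg15 (20.3 CPM), and KO SC-435 replicate 4 for Iigp1 (359 CPM).

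The SC-435 effect differed between female KO and WT mice, as an edgeR interaction on the log2 scale, for Irf7 (-1.35), Oas1a (-1.80), Oas2 (-1.39), Oas3 (-1.96), Ifit1 (-1.10), Ifit2 (-1.19), Ifit3 (-0.98), Mx1 (-1.69), Rsad2 (-1.05), Ifi44 (-1.44), Xaf1 (-0.99), Rtp4 (-0.71), Parp14 (-0.74) and Trim30a (-0.94).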

How the results depend on the processing

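Between female KO and WT mice on chow the count of 24 called members stayed within 1.5 times under all alternatives (16 to 30, and 20 to 25 without 1 library). Between female KO mice on SC-435 and on chow the 16 became 5 with all 8 groups in 1 fit and 7 to 17 without 1 library. In female WT mice the 7 called with SC-435 became 12 with DESeq2, 12 with voom, 2 with all 8 groups in 1 fit and 1 to 12 without 1 library. For female KO mice on SC-435 against WT mice on chow, the 12 became 3 with all 8 groups in 1 fit. The female interaction, 14, ranged from 3 to 18 without 1 library. In males the 0 for KO against WT on chow became 3 with voom and 9 with all 8 groups in 1 fit, the 9 for SC-435 in KO mice ranged from 1 to 10 without 1 library, the 0 for SC-435 in WT mice became 1 with voom, and the 0 for KO mice on SC-435 against WT mice on chow became 3 with voom and ranged from 0 to 1 without 1 library. The 0 in the male interaction became 1 with DESeq2 and 2 with voom, the 0 for female against male WT mice became 6 with voom and 0 to 2 without 1 library, and the 0 for the sex difference of the KO effect became 6 with voom. The causes were not tested.

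No called gene changed sign. Among the uncalled, for SC-435 in female KO mice, library size only gave -0.01 for Ifih1, -0.09 for Usp18 and -0.11 for Isg15, voom gave -0.05 for Usp18 and -0.12 for Isg15, and leaving out 1 library gave -0.01 to 0.16 for Usp18 and -0.07 to 0.25 for Isg15. For female KO mice on SC-435 against WT mice on chow, Oas3 was -0.18 with voom and -0.18 to 0.23 without 1 library, and Mx1 -0.13 to 0.12.

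Replicate numbers were shared between groups. The deviations of same-numbered mice from their group means correlated at -0.148 to 0.334, and in no comparison did every pair pass 0.1. Differently numbered mice were not set beside them, so this cannot exclude a pairing, and the main fits assumed none. With the replicate number as a block, the counts became 17 for female KO against WT on chow, 9 for SC-435 in female KO mice, 3 for SC-435 in female WT mice and 8 for the female interaction.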
